A study of Danio rerio with 21 samples.

Results

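Livers dissected from zebrafish larvae at 7 dpf were profiled by low-input RNA-seq, and 2 genotypes were compared: *sec31anju221*, and the double mutant *sec31anju221; srebp1-/-*, in which *srebf1* is disrupted as well. The comparison holds 6 of the 21 libraries of the series, 3 per genotype, taken by the genotype in their labels, and it covers all genes counted. *sec31anju221* is a gene-trap line in which an insertion in an intron of *sec31a* yields a fusion to GFP that lacks the C-terminal part of Sec31a. The study describes it as hypomorphic, and both genotypes carry it. The *srebp1* allele is a CRISPR/Cas9 deletion, and both are germline mutations, not confined to the liver. Livers at 7 dpf of wild type (WT) and of a further double mutant, *sec31anju221; srebp2-/-*, each with 3 libraries, are given side by side where they help to place a value. The labels list no liver with *srebp1* disrupted on a WT background, so an effect of *srebf1* outside *sec31anju221* cannot be read from these data. Livers were dissociated with trypsin before library preparation, the concentration being given as 0.25% in the protocol and 2.5% in the sample labels, and the number of livers in a library is not given in the sources used here.

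Srebp1, the product of *srebf1*, is a transcription factor held in the ER membrane by Scap and Insig proteins. When it is released, Scap carries it in COPII vesicles to the Golgi, where a pair of proteases encoded by *mbtps1* and *mbtps2* free its N-terminal part, which enters the nucleus. In mammalian liver it drives the genes of fatty acid and triglyceride synthesis, whereas its relative Srebp2 drives those of cholesterol synthesis and uptake. Sec31a forms the outer cage of the COPII coat, so the pathway that delivers Srebp1 to its proteases is the one compromised in *sec31anju221*. The question set by the design is which genes differ between *sec31anju221* livers with and without *srebf1* disrupted.

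The libraries held 20539492 to 20597028 counts in *sec31anju221* and 20574952 to 20712764 in the double mutant. Counts of *apoa2*, an apolipoprotein gene, made up 11.3% to 11.7% of the former and 15.4% to 15.7% of the latter, and values are therefore given as CPM with library sizes scaled by TMM factors. Libraries of the same genotype agreed almost to the sampling noise of read pairs. Among genes with 2000 to 10000 counts, the ratio of variance to mean between libraries was 1.86 in *sec31anju221* and 2.101 in the double mutant. Independent dissections that varied by 10% would have given 36.8 and 38.4. Each genotype was therefore counted as 1 sample, and ranges over libraries describe sequencing precision alone. No p-value is given for a difference between genotypes, and none of the differences below has a replicate check. A gene is said to have risen or fallen when it differed by more than 2-fold, reached a mean of 1 CPM in either genotype, and had no overlap between the libraries of one genotype and those of the other. By this rule 2670 of 18821 genes rose in the double mutant (14.2%) and 3203 fell (17.0%), and the median log2 fold change over the 18821 genes was −0.11. The quartiles of that distribution were −0.75 and 0.57. Counts of list genes below are to be read beside the 14.2% and 17.0% of all genes. Scaling by library totals moves every log2 fold change of this comparison by −0.10. A list median of this comparison within that distance of 0 is given with no direction. TMM factors were 0.482 to 0.485 in WT and 0.759 to 0.765 in *sec31anju221*. They were 0.705 to 0.713 in the double mutant and 0.562 to 0.566 in the *srebp2* double mutant. Values set against WT or the *srebp2* double mutant therefore shift by other amounts, which were not computed.

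**Figure D1:**
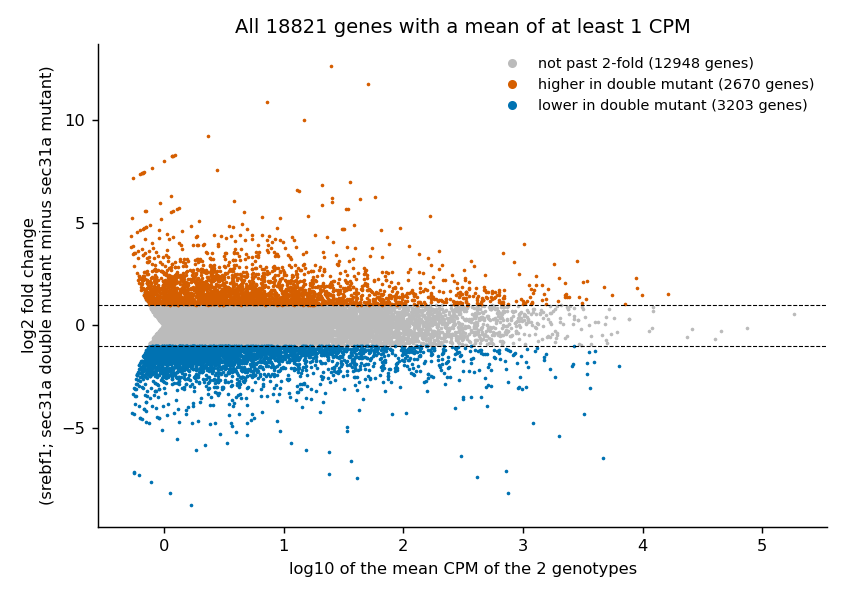
Each point is 1 of the 18821 genes whose mean reached 1 CPM in *sec31anju221* or in the *srebp1* double mutant. The horizontal axis is the log10 of the mean CPM of the 2 genotypes and the vertical axis the log2 fold change of the double mutant against *sec31anju221*, with dashed lines at 2-fold. The 2670 genes that rose and the 3203 that fell spread over the whole range of expression.

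*srebf1* itself was low in every library. It had 1.72, 1.52 and 1.48 CPM in the 3 *sec31anju221* libraries and 0.205, 0.617 and 0.544 CPM in the 3 double mutant libraries. No double mutant library reached the lowest *sec31anju221* library, and the fall was 3.42-fold (log2 fold change −1.77), from 23 to 27 reads to 3 to 9 reads per library. WT livers had 1.44 CPM on average, and *srebp2* double mutant livers, whose *srebf1* is not disrupted by design, had 0.405 CPM. The level of *srebf1* thus does not separate the libraries of the 2 double mutants from each other, but that of *srebf2* does. Which exons the remaining reads came from cannot be seen in counts per gene. *srebf2*, the gene of Srebp2, had 3.83, 3.87 and 5.65 CPM in the 3 *sec31anju221* libraries and 2.05, 3.49 and 3.40 CPM in the 3 double mutant libraries. These values did not overlap, but the difference of −0.58 on the log2 scale was under 2-fold. In the 3 *srebp2* double mutant libraries *srebf2* stood at 0.843 to 1.21 CPM, below every *srebp1* double mutant library, as their labels have it. *sec31a* had 2.64 CPM in *sec31anju221* and 2.02 CPM in the double mutant, against 19.5 CPM in WT, and its paralog *sec31b* had 7.68, 10.6 and 1.83 CPM in the same order.

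The cellular make-up of the libraries was read from marker genes. Hepatocyte markers summed to 192521 to 196144 CPM over the 22 listed genes in *sec31anju221* and to 284815 to 292241 CPM in the double mutant. WT had 682729 to 693073 CPM. *apoa2* is on this list and makes up most of each sum. *fabp10a*, a fatty acid binding protein used as a hepatocyte marker, rose from 2959 to 8155 CPM. Of the 22 genes, 7 rose and 2 fell. Exocrine pancreas markers, the digestive enzymes of an organ that lies beside the liver, rose far more. Of the 30 tested, 24 reached 1 CPM, 19 rose and 1 fell, with a median log2 fold change of 3.68, and their sum was 151 to 152 CPM in *sec31anju221* and 1038 to 1043 CPM in the double mutant. The same sum was 2138 to 2166 CPM in WT and 84.5 to 86.8 CPM in the *srebp2* double mutant. Leukocyte markers summed to 167 to 179 CPM in *sec31anju221* and 508 to 535 CPM in the double mutant, with 11 of 22 genes higher and 1 lower. The macrophage genes *marco* (5.32 and 24.5 CPM) and 3 of the *mfap4* copies were among those higher. Of the 22 genes 7 had a log2 fold change below 0. In the *srebp2* double mutant the leukocyte sum was 1511 to 1589 CPM. The median of the leukocyte list was 1.08, also with *mhc2dab*, which had no count in *sec31anju221*, set to its lower bound. The list of endothelial and stellate cell markers moved the other way. Its sum fell from between 494 and 510.2 CPM to between 160.4 and 165 CPM, with 7 of 20 genes lower and 0 higher, and the stellate genes *hand2* (28.6 and 8.49 CPM) and *pdgfrb* (18.96 and 5.65 CPM) and the endothelial genes *cdh5*, *kdrl* and *stab2* were among them. The single gene with the largest fall in the list was *rgs5*, a pericyte gene, at 199 and 10.3 CPM. Most of the fall of the sum came from *rgs5* and *col5a1* (111 and 26.3 CPM). The list median was −0.36, and 6 of the 20 genes had a log2 fold change above 0. The intestinal, biliary, erythrocyte, endocrine pancreas and muscle or skin lists had medians of −0.396, 0.28, 0.08, −1.13 and 0.08. *mhc2dab* in *sec31anju221* was the only tested marker of any list without a count in either genotype. In whole tissue, fewer cells of a type and less RNA per cell cannot be told apart, and the part of these cells in the results below was not tested except where a value is given beside the result.

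**Figure D2:**
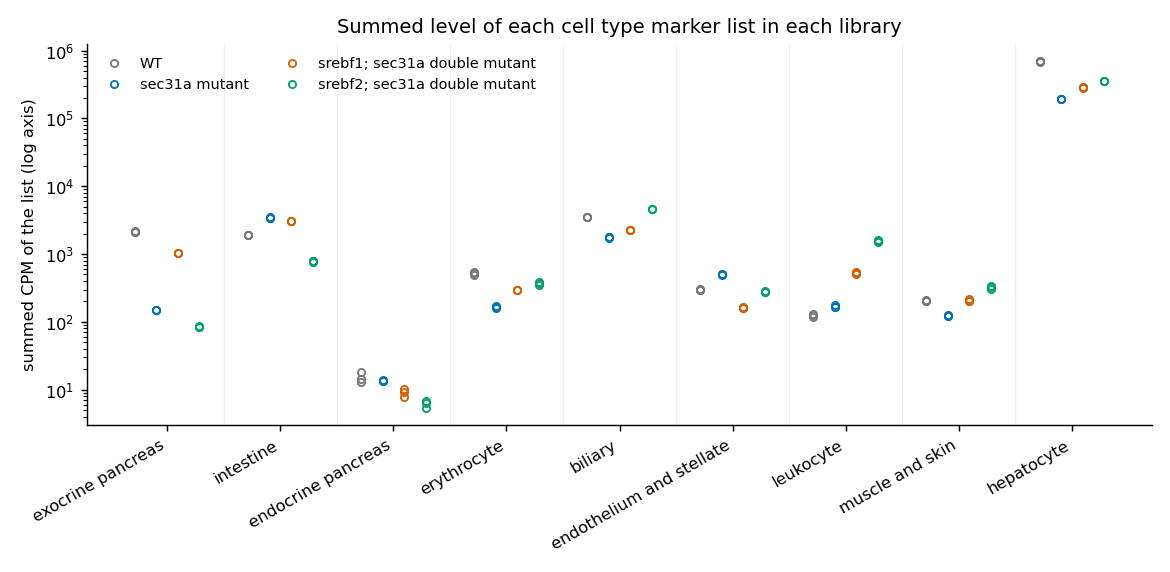
Each point is the summed CPM of a cell type marker list in 1 library, on a log axis, for WT, *sec31anju221* and both double mutants. The exocrine pancreas list stands near 151 CPM in *sec31anju221* and near 1038 CPM in the *srebp1* double mutant, while the list of endothelial and stellate cells falls from about 502 to 163 CPM.

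The genes of fatty acid synthesis, the best known targets of Srebp1 in mammals, did not move as a group. Of the 29 genes tested 25 reached 1 CPM, of which 5 rose (20%) and 4 fell (16%), shares close to those of all genes, and their median was 0.08. *fasn*, which encodes fatty acid synthase, had 19.995, 19.2 and 20.8 CPM in the 3 *sec31anju221* libraries and 18.2, 14.5 and 15.8 CPM in the 3 double mutant libraries. The lowest *sec31anju221* library stood above the highest double mutant library, yet the difference was −0.31 on the log2 scale, and WT had more than either, at 46.8 CPM. *acaca*, the gene of the acetyl-CoA carboxylase that commits acetyl units to fatty acids, had 22.9, 25.5 and 23.6 CPM in the 3 *sec31anju221* libraries and 12.9, 13.6 and 14.01 CPM in the 3 double mutant libraries. The 2 sets of libraries stood apart, at a log2 fold change of −0.83, and WT had 25.6 CPM. The second carboxylase gene *acacb* had 41.0 and 38.9 CPM (log2 fold change −0.08), and *acly*, which makes acetyl-CoA from citrate, had 21.003 and 26.9 CPM for one identifier (ENSDARG00000099079) and 5.61 and 3.05 CPM for the other (ENSDARG00000055652). The 2 desaturase genes matched, *scd* and *scdb*, stayed under 1 CPM in both genotypes.

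*me1*, the cytosolic malic enzyme, a source of NADPH, had 53.2, 53.4 and 52.8 CPM in the 3 *sec31anju221* libraries and 19.3, 18.02 and 19.6 CPM in the 3 double mutant libraries. It fell 2.803-fold, and the libraries stood far apart, while WT was lower than both, at 5.21 CPM. *pgd*, for a dehydrogenase of the pentose phosphate route, had a log2 fold change of 0.08. Elongases moved in both directions. *elovl6*, which extends palmitate to stearate, rose from 1.70 to 4.55 CPM, and *elovl5*, which extends polyunsaturated chains, rose from 1.23 to 5.05 CPM. *elovl2* fell from 15.5 to 5.71 CPM. The largest fall of the list was that of an *elovl1* gene (ENSDARG00000103735), which extends saturated chains, from 86.5 to 15.5 CPM (log2 fold change −2.48). *hsd17b12b*, the ketoacyl reductase of elongation, rose from 34.6 to 82.3 CPM, to about its WT level of 78.8 CPM. A citrate carrier gene, *slc25a1* (ENSDARG00000076381), rose from 4.61 to 9.70 CPM, and *mid1ip1*, whose product promotes polymerisation of acetyl-CoA carboxylase, had 820.1 and 1044 CPM.

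**Figure D3:**
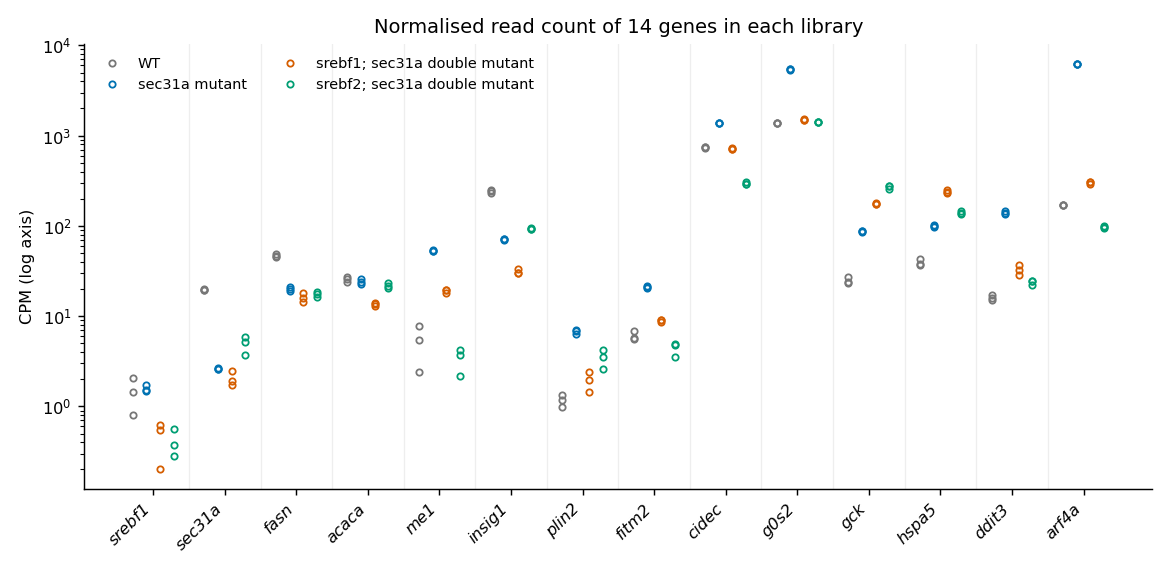
CPM of 14 genes in each library on a log axis, with 3 points per genotype for WT, *sec31anju221*, the *srebp1* double mutant and the *srebp2* double mutant. *fasn* and *acaca* stay within 2-fold between *sec31anju221* and the *srebp1* double mutant, whereas *me1*, *insig1*, *plin2*, *fitm2*, *g0s2*, *ddit3* and *arf4a* are lower in the latter and *gck* and *hspa5* higher.

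Cholesterol genes were mixed as well. Of 24 genes at 1 CPM or above 7 rose (29.2%) and 3 fell (12.5%), with a median of 0.06. *pmvk*, the phosphomevalonate kinase, fell most, from 42.8 to 6.21 CPM, close to the 4.73 CPM of WT, and *ebp*, a sterol isomerase, fell from 7.70 to 1.34 CPM. The HMG-CoA synthase gene *hmgcs1* had 39.3 and 49.5 CPM, and the farnesyl diphosphate synthase gene *fdps* 19.02 and 18.5 CPM. Among the genes that rose were *acat2*, which condenses acetyl-CoA units (41.3 and 114 CPM), the sterol demethylase gene *msmo1* (4.64 and 10.1 CPM) and the isopentenyl diphosphate isomerase gene *idi1* (3.92 and 8.76 CPM). The gene of the LDL receptor, *ldlra*, had 65.2 and 43.2 CPM, a log2 fold change of −0.59. Its relative *lrp8* fell from 7.83 to 2.87 CPM.

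Of the 11 genes for Srebp factors and their processing, 9 had a log2 fold change below 0, 3 fell and 2 rose, with a median of −0.61. *srebf1*, disrupted by design, is 1 of the 3 that fell. *insig1*, whose product retains the Scap and Srebp complex in the ER and whose gene is a known target of Srebps, had 70.0, 71.96 and 71.7 CPM in the 3 *sec31anju221* libraries and 33.0, 29.8 and 29.7 CPM in the 3 double mutant libraries. It fell 2.31-fold and was farthest from WT in the double mutant, since WT had 243 CPM. *scap* had 5.02 and 3.28 CPM, and the protease genes *mbtps1* and *mbtps2* had log2 fold changes of −0.49 and −0.87. The ubiquitin ligase genes *amfr* (ENSDARG00000105578) and *rnf139*, whose products act in sterol-dependent degradation at the ER, moved apart, the former from 3.704 to 1.80 CPM and the latter from 1.06 to 4.73 CPM. *erlin1*, whose product acts beside them, rose from 4.09 to 9.69 CPM, while *erlin2* had 72.8 and 40.7 CPM.

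Triglyceride synthesis had 3 of 20 genes higher (15%) and 2 lower (10%), where 14.2% of all genes rose and 17.0% fell. The list median was −0.04. The first committed step is taken by glycerol phosphate acyltransferases, of which *gpam* fell from 4.57 to 2.21 CPM and *gpat3* (ENSDARG00000016048) had 39.8 and 30.3 CPM. The final step is taken by *dgat1* and *dgat2*. *dgat1* (ENSDARG00000054914) had 39.8 and 43.5 CPM, and *dgat2* 38.6 and 29.4 CPM, both under 2-fold. *lpin1*, a phosphatidate phosphatase, had 392, 382 and 397 CPM in the 3 *sec31anju221* libraries and 751, 754 and 736 CPM in the 3 double mutant libraries. Every double mutant library stood above every *sec31anju221* library, at a log2 fold change of 0.94. The acyl-CoA synthetases, which activate fatty acids, changed in opposite directions. *acsl1* (ENSDARG00000030514) fell from 25.4 to 10.8 CPM, *acsl1b* rose from 3.81 to 20.1 CPM, and an *acsl4* gene (ENSDARG00000004078) rose from 6.21 to 28.2 CPM. *agpat3*, a lysophosphatidate acyltransferase, rose 4.54-fold, from 20.7 to 94.1 CPM.

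Genes of the lipid droplet gave 3 falls and 0 rises among 19, where 17.0% of all genes fell and 14.2% rose, and a median of −0.15. *g0s2*, the inhibitor of the triglyceride lipase Atgl, had 5401, 5353 and 5445 CPM in the 3 *sec31anju221* libraries and 1503, 1515 and 1504 CPM in the 3 double mutant libraries. It fell 3.58-fold, to near the 1381 CPM of WT. *plin2*, the coat protein that marks droplets of the liver, had 6.84, 6.98 and 6.29 CPM in the 3 *sec31anju221* libraries and 1.98, 1.44 and 2.38 CPM in the 3 double mutant libraries. The 2 sets of libraries were well apart, and WT stood at 1.17 CPM. *fitm2*, needed for droplets to bud from the ER, had 21.4, 20.2 and 20.8 CPM in the 3 *sec31anju221* libraries and 9.16, 8.97 and 8.70 CPM in the 3 double mutant libraries. All 3 genes were higher in *sec31anju221* than in WT, with log2 fold changes of 1.97, 2.51 and 1.77. *cidec*, which fuses droplets, had 1371 CPM in *sec31anju221*, 714 CPM in the double mutant and 739 CPM in WT. Its log2 fold change of −0.94 was just under 2-fold. In the *srebp2* double mutant *g0s2*, *plin2*, *fitm2* and *cidec* were also below *sec31anju221*, at 1413, 3.46, 4.43 and 296 CPM. The list median of that mutant against *sec31anju221* was −0.48, where that of all 18821 genes was −0.33. By Oil Red O staining, the study saw no noticeable effect of *srebp1* loss on liver lipid in *sec31anju221* larvae. *pnpla2*, the gene of Atgl itself, had 57.8 and 60.2 CPM, and *plin3* 9.21 and 7.33 CPM. *pnpla3* had 15.7 and 27.6 CPM and *lipea*, the hormone-sensitive lipase gene, 7.23 and 7.92 CPM.

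Genes of fatty acid oxidation were higher as a list. Of 36 genes 9 rose (25%) and 0 fell, 27 had a log2 fold change above 0, and the median was 0.48. *hadha*, for a subunit of the mitochondrial trifunctional protein, rose from 24.3 to 81.2 CPM, and *hadhb*, for its partner subunit, from 86.2 to 189 CPM. *decr1*, a reductase for unsaturated chains, had 14.9, 16.6 and 15.7 CPM in the 3 *sec31anju221* libraries and 53.8, 51.6 and 55.5 CPM in the 3 double mutant libraries. *acads* and *acadm*, the short- and medium-chain dehydrogenases, rose 2.92-fold and 2.15-fold, and *ehhadh*, a peroxisomal enzyme, from 3.81 to 9.59 CPM. *hadhaa*, a further copy of the trifunctional subunit, went against them within 2-fold. Hepatocyte markers were also higher in these libraries, by a median of 0.77 on the log2 scale, and their part in this difference was not tested.

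Of 42 genes for lipoproteins and lipid transport, 9 rose (21.4%) and 9 fell (21.4%), and the median was 0.01. Of all genes, 14.2% rose and 17.0% fell. The gene with the largest fall of all those named here was *apoea*, an apolipoprotein E gene. It had 73.4, 71.4 and 71.5 CPM in the 3 *sec31anju221* libraries and 0.547, 0.822 and 0.816 CPM in the 3 double mutant libraries. It fell 98.0-fold, and both WT (44.8 CPM) and *sec31anju221* stood far above the double mutant. The *srebp2* double mutant was low as well, at 3.33 CPM. The second copy *apoeb* fell from 233 to 69.9 CPM, and *scarb1*, the gene of the HDL receptor, from 172 to 53.1 CPM. In contrast *apoa1a* rose from 679 to 3291 CPM, *apoa1b* from 8565 to 24301 CPM and *apoa4a* from 132 to 482 CPM. A *surf4* gene (ENSDARG00000035131), whose product is a cargo receptor that helps lipoproteins leave the ER, rose from 7.64 to 102 CPM. An *slc27a1* gene (ENSDARG00000104949), for a fatty acid transport protein, rose from 12.02 to 120.3 CPM, and a *fabp7* gene (ENSDARG00000007697) fell from 289 to 51.1 CPM.

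Glucose and glycogen genes had 9 of 33 higher (27.3%) and 3 lower (9.09%), with a median of 0.43. Of the 33 genes 10 had a log2 fold change below 0, the lowest being −1.40, and the genes named below are all among those that rose. Hepatocyte markers had a median of 0.77, and their part in this difference was not tested. *gck*, the glucokinase gene that responds to insulin through Srebp1 in mammalian liver, had 86.6, 87.2 and 88.5 CPM in the 3 *sec31anju221* libraries and 177, 173 and 174 CPM in the 3 double mutant libraries. It rose 2.0001-fold, which was under 2-fold when library totals were used for scaling, and its level in WT was 24.8 CPM. *pklr*, the liver pyruvate kinase gene, rose from 266 to 837 CPM, *gys2*, the liver glycogen synthase gene, from 38.5 to 93.2 CPM, *pgm1* from 189.9 to 517 CPM, and *fbp1a*, a gene of gluconeogenesis, from 5.32 to 23.7 CPM.

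The 15 largest falls were taken among genes whose mean reached 10 CPM in one of the 2 genotypes and whose libraries did not overlap. Genes with no symbol, a clone name or a predicted-locus name were left out. These falls included several genes of the secretory pathway that were abundant in *sec31anju221*. *arf4a*, an Arf GTPase of the ER and Golgi, had 6157, 6137 and 6180.2 CPM in the 3 *sec31anju221* libraries and 294, 304 and 305 CPM in the 3 double mutant libraries. It fell 20.5-fold, from a level far above the 169.6 CPM of WT. *lrba*, for an anchor protein of vesicle traffic, fell from 3916 to 91.5 CPM, and *acbd3* (ENSDARG00000042623), for a Golgi scaffold protein, from 2336 to 83.9 CPM. *ggcx*, the vitamin K-dependent carboxylase that matures clotting factors in the ER, had 9175, 9135 and 9266 CPM in the 3 *sec31anju221* libraries and 101, 101 and 103 CPM in the 3 double mutant libraries. WT had 2547 CPM, between the 2 genotypes. In each of these 4 genes the *srebp2* double mutant was low as well, at 97.6, 105, 81.0 and 127 CPM. Since both double mutants are set against the same *sec31anju221* libraries, these values are not separate evidence. The paralog *arf4b* had 870.1 CPM in *sec31anju221*, 498 CPM in the double mutant and 1.47 CPM in WT.

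The other large falls were of other kinds. *nrarp* (ENSDARG00000091419), a feedback inhibitor of Notch signalling, had 609.7, 611 and 592 CPM in the 3 *sec31anju221* libraries and 5.53, 8.77 and 7.41 CPM in the 3 double mutant libraries. Its level in WT, 543 CPM, was near that of *sec31anju221*. *ccl39.2*, a chemokine gene, fell from 47.7 to 0.637 CPM and *cd79a*, known for its part in the B cell receptor, from 66.5 to 1.87 CPM. *tnfaip6*, a hyaluronan-binding protein, fell from 10.4 to 0.410 CPM. WT had 2.87 CPM of *cd79a*, far below *sec31anju221*. In the *srebp2* double mutant *nrarp*, *ccl39.2*, *cd79a* and *tnfaip6* were also below *sec31anju221*, at 47.5, 1.31, 0.685 and 0.685 CPM. The calcium-binding parvalbumin gene *pvalb9*, the dysbindin gene *dtnbp1b*, the protocadherin gene *pcdh15b*, the sialidase gene *neu3* (ENSDARG00000010047), the amino acid transporter gene *slc7a6* and *rgs5* completed the set, with log2 fold changes from −5.78 to −4.14. In the *srebp2* double mutant these genes were below *sec31anju221* too, *pvalb9* at 1.15 CPM against 22.9 CPM and *dtnbp1b* at 12.4 CPM against 18.4 CPM.

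The 15 largest rises were taken by the same rule. Among them, 9 were digestive enzymes or granule proteins of the exocrine pancreas: *sycn* (ENSDARG00000103687), *cela1* (ENSDARG00000017314), *ela3l*, *prss1*, *cpa1* (ENSDARG00000021339), *ela2*, *ela2l*, *ctrb.1* and *amy2al2*. The trypsin gene *prss1* had 1.09, 1.14 and 1.35 CPM in the 3 *sec31anju221* libraries and 85.6, 86.7 and 86.6 CPM in the 3 double mutant libraries, and the elastase gene *ela2l* had 7.03, 6.35 and 7.25 CPM in the 3 *sec31anju221* libraries and 181, 181 and 181 CPM in the 3 double mutant libraries. Both were low in the *srebp2* double mutant, at 3.86 and 9.69 CPM. *ptf1a*, a transcription factor of pancreatic cells, stayed under 1 CPM in both genotypes. The remaining 6 were not on the pancreas list. *mhc2dab*, a class II antigen presentation gene, had 0 counts in all *sec31anju221* libraries and 14.5 CPM in the double mutant, which is at least 227-fold higher if the former is set to 3 counts over its 3 libraries. *bnip4*, a mitophagy receptor gene, had 0.447, 0.317 and 0.898 CPM in the 3 *sec31anju221* libraries and 71.8, 69.0 and 74.7 CPM in the 3 double mutant libraries. WT had 18.4 CPM and the *srebp2* double mutant 51.0 CPM. *proc* (ENSDARG00000093079), for the anticoagulant protein C, rose from 0.489 to 18.3 CPM, the sulfotransferase gene *sult1st4* from 0.638 to 17.04 CPM, the plasminogen receptor gene *plgrkt* from 2.32 to 60.3 CPM, and *rnasek* (ENSDARG00000104458) from 5.07 to 126 CPM.

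Genes of ER chaperones and quality control were higher as a list. Of 40 genes 18 rose (45%) and 4 fell (10%), and the median was 0.88. Between *sec31anju221* and WT the median of the list was 1.08. Not every gene that rose here was above WT in *sec31anju221*. *hspa5*, the gene of BiP, the main chaperone of the ER lumen, had 100.1, 98.2 and 103 CPM in the 3 *sec31anju221* libraries and 232, 249 and 239 CPM in the 3 double mutant libraries. WT had 39.1 CPM, so the order was WT, *sec31anju221* and double mutant, with no overlap between them. *hsp90b1*, for the ER form of Hsp90, rose from 57.4 to 295 CPM, the calreticulin genes *calr*, *calr3a* and *calr3b* rose 2.75-fold, 5.47-fold and 4.602-fold, and *pdia3*, a disulfide isomerase that works with them, rose from 180.4 to 630.3 CPM. *dnajb9* (ENSDARG00000016886), a co-chaperone, rose from 2.40 to 26.7 CPM and *cnpy2* from 0.916 to 10.9 CPM. In WT *hsp90b1* and *dnajb9* had 71.9 and 9.28 CPM, more than in *sec31anju221*. *calr3a* had 140 CPM in WT and 150 CPM in *sec31anju221*, while *cnpy2* had 0.359 CPM in WT. *atf6*, the sensor of unfolded proteins that shares its Golgi proteases with Srebp1, had 337, 319 and 327 CPM in the 3 *sec31anju221* libraries and 819, 867 and 843 CPM in the 3 double mutant libraries. Of the genes for the other sensors, *ern1*, for Ire1, fell from 20.2 to 5.37 CPM, and *eif2ak3*, for Perk, had 36.4 and 26.6 CPM, under 2-fold. *xbp1*, the gene whose transcript Ire1 splices, had 104 and 149.6 CPM. *derl1*, for a channel protein of ER-associated degradation, had 5799, 5763 and 5778 CPM in the 3 *sec31anju221* libraries and 1099.9, 1093 and 1095 CPM in the 3 double mutant libraries. It fell 5.27-fold against the direction of the list, and WT had 508 CPM. The exocrine pancreas, whose markers were 1038 to 1043 CPM here against 151 to 152 CPM, is rich in these chaperones, and 1 gene of the list, *pdia2*, is a pancreatic isomerase. Summed levels of the chaperone list were 16797 to 16959 CPM in *sec31anju221* and 19265 to 19457 CPM in the *srebp1* double mutant. *derl1* alone gave 5780 CPM of the former and 1096 CPM of the latter. WT livers had a pancreas sum of 2138 to 2166 CPM and a chaperone sum of 4486 to 4536 CPM. The *srebp2* double mutant had a pancreas sum of 84.5 to 86.8 CPM and a chaperone sum of 9434 to 9443 CPM. How far pancreatic RNA adds to the difference between *sec31anju221* and the *srebp1* double mutant was not tested.

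**Figure D4:**
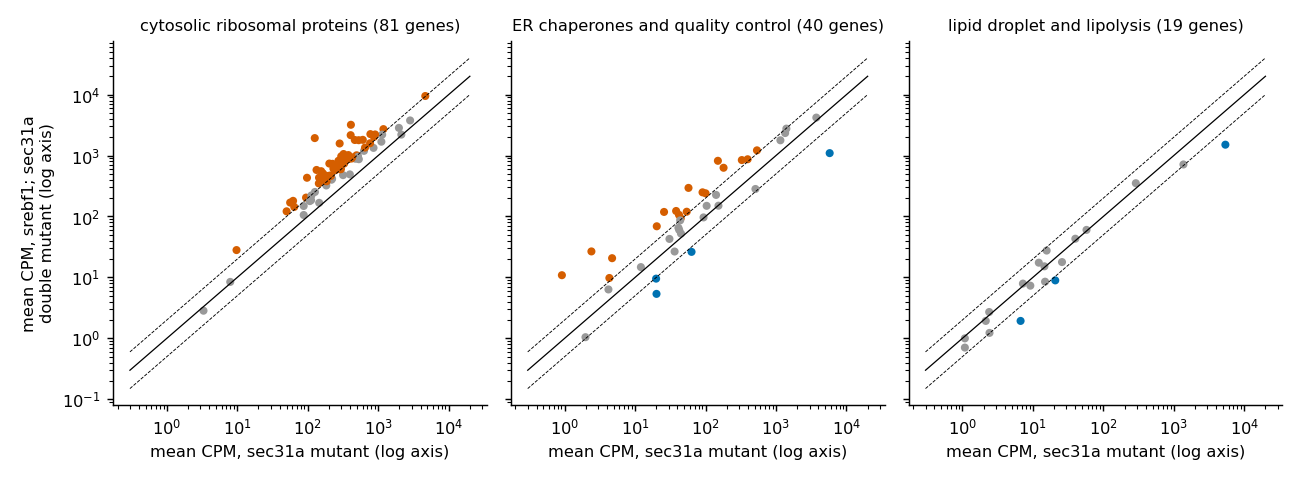
Mean CPM of each gene in *sec31anju221* (horizontal) and in the *srebp1* double mutant (vertical), both on log axes, for cytosolic ribosomal proteins, ER chaperones and quality control, and lipid droplet and lipolysis genes; the solid line marks equal levels and the dashed lines 2-fold. Of the 81 ribosomal protein genes 56 are past the upper dashed line. The other 25 lie between the dashed lines, and 1 of these is below the line of equal levels. Of 40 chaperone genes 18 are past the upper dashed line, and *derl1* lies far below the lower one. Only 3 of 19 lipid droplet genes leave the band between the dashed lines.

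In the integrated stress response, the arm that runs through Atf4, 5 of 40 genes rose (12.5%) and 5 fell (12.5%), where 14.2% of all genes rose and 17.0% fell, and the median was −0.26. *ddit3*, the gene of the proapoptotic factor Chop, had 135, 145 and 138 CPM in the 3 *sec31anju221* libraries and 28.5, 36.4 and 32.0 CPM in the 3 double mutant libraries. It fell 4.31-fold, towards the 16.2 CPM of WT. *ppp1r15a*, for the phosphatase subunit that ends the response, fell from 65.3 to 29.3 CPM. On the other side, *atf4a* rose from 6.40 to 22.0 CPM while its copy *atf4b* had 88.4 and 68.9 CPM, and *trib3*, a known target of Atf4 and Chop, rose from 35.8 to 127 CPM. The 2 identifiers named *stc2* moved apart, ENSDARG00000102206 from 5.30 to 23.8 CPM and ENSDARG00000056680 from 8.86 to 2.30 CPM. *atf3* had 116 and 58.9 CPM, just under 2-fold. Of 16 aminoacyl-tRNA synthetase genes 2 rose, *gars1* from 146 to 403 CPM and *vars1* from 7.13 to 15.002 CPM. None of the 22 genes for the COPII coat and its cargo receptors rose or fell by the rule, although *sec24a*, a cargo adaptor of the coat, had 15.04 and 30.1 CPM and the SNARE gene *sec22b* (ENSDARG00000030108) 4846 and 2533 CPM, both close to 2-fold. The latter was 18.4 CPM in WT.

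Of the 35 lists, cytosolic ribosomal proteins had the largest share of rises after the pancreas markers. Of 81 genes 56 rose (69.1%) and 0 fell, 80 had a log2 fold change above 0, and the median was 1.19. Their summed level was 36871 to 37129 CPM in *sec31anju221*, 82587 to 83434 CPM in the double mutant and 57026 to 57319.5 CPM in WT. *rpl24* had 127, 122 and 129 CPM in the 3 *sec31anju221* libraries and 1921, 1945 and 1937 CPM in the 3 double mutant libraries, and *rpl5* (ENSDARG00000020197) rose from 410.1 to 3197 CPM. *rpl12* and *rpl10a* rose 5.56-fold and 5.31-fold, and *rps3* from 97.7 to 432 CPM. The *srebp2* double mutant had the highest ribosomal sum, at 153368 to 154219 CPM. The part of the cell types above in these levels was not tested. Reads of near-identical copies could have been shared in counting. Mitochondrial ribosomal protein genes did not move with them: 4 of 75 rose, 3 fell and the median was 0.01.

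Nuclear genes of oxidative phosphorylation had 23 of 113 higher (20.4%) and 4 lower, with a median of 0.56 and 93 genes above 0. *uqcrc2a*, a core subunit gene of complex III, rose from 22.1 to 129 CPM and *atp5f1a*, for the alpha subunit of ATP synthase, from 89.6 to 249.7 CPM. The assembly factor genes *ndufaf3* and *ndufaf6* rose 11.5-fold and 7.14-fold. Genes encoded by the mitochondrial genome went the other way, with 10 of 13 below 0, 2 past 2-fold (*mt-atp8* and *mt-nd4l*) and a median of −0.33. *mt-cyb*, the most abundant of the named ones, had 49896 and 30943 CPM. For the 59 proteasome genes tested no common direction was seen, with 8 higher, 7 lower and a median of 0.05, but *psmb10*, a subunit gene of the immunoproteasome, rose from 1.11 to 11.02 CPM. *b2m*, for the light chain of class I antigen presentation, rose from 0.917 to 13.9 CPM. The leukocyte markers were also higher in these libraries, as given above, and their part here was not tested.

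Secreted proteins of hepatocytes had 17 of 53 genes higher (32.1%) and 3 lower, with a median of 0.72. Between *sec31anju221* and WT the median of the same genes was −1.004, and between the double mutant and WT −0.29. *gc*, for the vitamin D binding protein, had 600.1, 592 and 585 CPM in the 3 *sec31anju221* libraries and 5116, 5115 and 5072 CPM in the 3 double mutant libraries. The complement genes *c3a.2* and *c9* rose 4.44-fold and 4.29-fold, *hp*, the haptoglobin gene, from 20.9 to 92.9 CPM, *ttr*, for a carrier of thyroid hormone, from 161 to 549.6 CPM, and *tfa*, the transferrin gene, from 5275 to 14402 CPM. *gc*, *ttr* and *tfa* are also on the hepatocyte marker list, which had a median of 0.77. The part of hepatocyte content in these differences was not tested. *hamp*, the gene of the iron regulator hepcidin, fell from 6080.2 to 1717 CPM while WT had 5938 CPM. Of 22 hepatocyte transcription factor genes 6 rose (27.3%) and 1 fell, with a median of 0.69. *foxa1*, *foxa2*, *gata6* and *cebpa* rose, to 40.7, 44.0, 10.1 and 36.2 CPM from 11.4, 14.96, 1.45 and 16.9 CPM, and *nr5a2* fell from 132 to 63.0 CPM. *hnf4a* had 82.5 and 162 CPM, just under 2-fold. Not all hepatocyte functions followed. *pah*, the phenylalanine hydroxylase gene, fell from 1772 to 829 CPM.

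Detoxification genes changed in both directions. Cytochrome P450 families 1 to 4 had 12 of 47 genes higher (25.5%) and 8 lower (17%), with a median of 0.38. Of all genes, 14.2% rose and 17.0% fell. The log2 fold changes of the P450 genes ranged from −3.01 to 3.15. *cyp2p7* fell from 167 to 20.7 CPM and *cyp3c4* rose from 2.92 to 22.0 CPM. These families hold close paralogs among which reads could be shared. Sulfotransferases had 2 of 16 higher (12.5%) and 4 lower (25%), and *sult6b1* fell from 1217 to 459.7 CPM. In the bile acid list 1 of 16 genes rose, the canalicular transporter gene *abcc2*, from 40.7 to 93.3 CPM, and *abcb11*, the bile salt export pump gene, had 1767 and 1113 CPM. Antioxidant and glutathione genes had 6 of 25 higher and 2 lower, with a median of 0.396. *gpx4*, which reduces lipid peroxides, rose from 43.1 to 251 CPM, *sod2*, the mitochondrial superoxide dismutase gene, from 241 to 734 CPM and *prdx4*, an ER peroxiredoxin, from 109 to 458 CPM. *nqo1* fell from 168 to 70.28 CPM.

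Cell cycle genes were mostly higher, with 16 of 29 higher (55.2%), 0 lower and a median of 1.11. *pcna*, the sliding clamp of replication, had 29.0, 31.3 and 28.6 CPM in the 3 *sec31anju221* libraries and 91.8, 91.2 and 86.4 CPM in the 3 double mutant libraries. The libraries of the 2 genotypes were well separated, and the helicase genes *mcm3*, *mcm5* and *mcm6* (ENSDARG00000057683) rose 3.77-fold, 5.17-fold and 4.11-fold. *tyms*, which makes thymidylate, rose from 4.87 to 30.3 CPM, *mki67*, a marker of dividing cells, from 10.1 to 29.4 CPM and *cdca8*, a mitotic gene, from 1.402 to 5.80 CPM. Genes of the p53 pathway and apoptosis had 4 of 23 higher (17.4%) and 4 lower (17.4%), where 14.2% of all genes rose and 17.0% fell. *sesn3* and *phlda3* rose 5.97-fold and 9.13-fold, while *pmaip1*, the gene of Noxa, fell from 52.4 to 20.6 CPM. Cytosolic heat shock genes had 8 of 22 lower (36.4%) and 3 higher (13.6%), with a median of −0.29. Their summed level went the other way, from 4243 to 4355 CPM in *sec31anju221* to 6466 to 6589 CPM in the double mutant. The 8 include *serpinh1* (ENSDARG00000019949, log2 fold change −3.01), whose product is an ER protein. *hsp90aa1* had 127, 126 and 129 CPM in the 3 *sec31anju221* libraries and 22.1, 25.6 and 20.4 CPM in the 3 double mutant libraries, and *hsp70.3*, *hsp70l* and *hsph1* fell 4.78-fold, 2.46-fold and 2.69-fold.

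**Figure D5:**
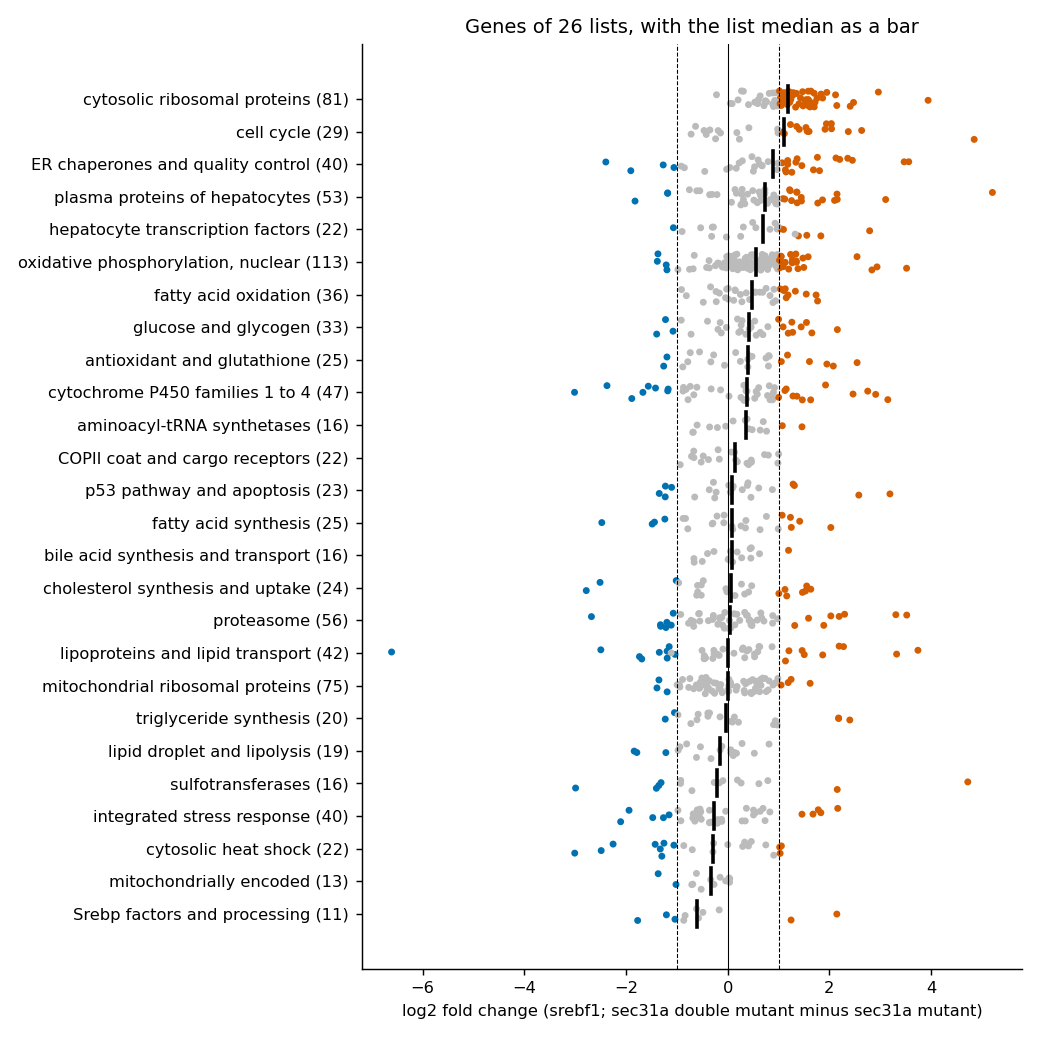
Log2 fold change of each gene with at least 1 CPM in 26 lists, ordered by the list median (black bar), with the number of genes in parentheses; orange genes rose, blue genes fell and dashed lines mark 2-fold. Cytosolic ribosomal proteins, cell cycle and ER chaperone genes have the highest medians, whereas the medians of fatty acid, cholesterol and triglyceride synthesis lie near 0 and that of Srebp factors and processing is −0.61.

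The neighbours of *srebf1* were looked at separately, because a homozygous mutant also shares the chromosome segment around the mutated locus. Gene order was taken from a RefSeq gene table of the assembly GRCz12tu, matched by symbol. Of the 10 protein-coding genes on each side 6 could be matched and reached 1 CPM, of which 1 rose and 0 fell. Of up to 50 on each side 22 could be matched and reached 1 CPM, 5 rose and 4 fell, and the median was 0.41. Over all genes, 14.2% rose and 17.0% fell.

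Set beside WT, the lists differed in where the double mutant stood. For lipid droplet genes, the median log2 fold change against WT was 0.46 in *sec31anju221* and 0.11 in the double mutant. For ER chaperones it was 1.08 and 1.704, for glucose and glycogen −0.78 and −0.39, for antioxidant genes −0.84 and −0.22, and for COPII genes 1.101 and 1.12. Over the 18821 genes it was 0.16 and −0.01. WT had the lowest TMM factors, so directions against WT can depend on the scaling, which was not tested. The *srebp2* double mutant against *sec31anju221* had medians of 0.51 for glucose and glycogen and 0.62 for antioxidant genes. They were 0.92 for secreted hepatocyte proteins, 0.39 for fatty acid oxidation, 2.06 for cytosolic ribosomal proteins and 0.01 for ER chaperones. In the *srebp1* double mutant these 6 were 0.43, 0.396, 0.72, 0.48, 1.19 and 0.88. With TMM scaling these medians were above 0 in both double mutants, apart from the 0.01 of ER chaperones, which is given no direction. Over the 18821 genes the median against *sec31anju221* was −0.33 in the *srebp2* double mutant and −0.11 in the *srebp1* double mutant. The other double mutants of the series were not compared here. Whether any of these shifts is particular to the *srebp1* double mutant was therefore not tested. The comparisons share libraries, so the values are given side by side and no relation between them was computed.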

How the data were processed

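RNA-seq of livers at 7 dpf was deposited as whole-number counts per gene, 1 file per library, without normalization. The authors prepared low-input libraries and sequenced read pairs, mapped them to GRCz11 with HISAT2 2.1.0 and made counts per Ensembl gene with featureCounts 1.6.0. The Ensembl release, the strand setting and the handling of reads with several mapping places are not given in the sources used here, so paralogs and antisense genes are uncertain.

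All 21 libraries entered the scaling and the model: genes whose scaled counts summed to 10 or more (30685 of 32520), TMM factors and quasi-likelihood fits of genotype in edgeR 4.0.16 under R 4.3.3, with a prior count of 0.125. Fold changes are the contrast of 2 genotypes. Summaries and plots used Python 3.11.15. The fitting and calling steps were tested on simulated data. Because the libraries of a genotype agreed within little more than sampling noise, tests between them compare libraries, not genotypes. DESeq2 1.42.0 and edgeR false discovery rates served as alternatives, beside other scalings, filters, fold limits, a replicate block and each library left out. At this depth 1 CPM rests on 15.7 counts in a *sec31anju221* library and 14.6 in a double mutant library.

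The genes, lists and rules were chosen with earlier results of these data known, and the exclusion of proteins that are not ribosomal from the pattern of that list came after its values were seen. Gene symbols came from a name table (29201 identifiers, of which 6314 share a symbol), lower-cased, and list symbols without a match were looked up without the paralog suffix. Identifiers are printed where a symbol is shared. Named genes are the disrupted genes and paralogs, the 15 largest rises and falls with at least 10 CPM, up to 5 members of each list with at least 5 CPM, and measured members of the lipid synthesis, storage and Srebp lists. The rises and falls leave out identifiers with no symbol, a clone name or a predicted-locus name. Named after their values were seen were *scd*, *scdb*, *gck*, *lrp8*, *hspa5*, *atf6*, *arf4b*, *calr*, *calr3b*, *pdia2*, *pdia3*, *ern1*, *eif2ak3*, *xbp1*, *ppp1r15a*, *atf3*, *atf4b*, *apoa1b*, *apoa2*, *apoa4a*, *apoeb*, *scarb1*, *hadhb*, *acadm*, *hamp*, *pah*, *hnf4a*, *pcna*, *mki67*, *b2m*, *kdrl*, *stab2* and *ptf1a*. No sequence is printed, and some genes that entered the counts are not reported here by name.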

Additional observations from a re-analysis of the deposited data

How the results depend on the processing

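The counts of 2670 genes higher and 3203 lower in the double mutant stayed within 1.5 times under RLE size factors (2886 and 2908), library totals (2110 and 3338), TMM factors from genes with at least 10 CPM (2070 and 3181), a fit to the 6 libraries (2760 and 2526), no CPM filter (3656 and 4551), and tests of libraries at a false discovery rate below 0.001, by edgeR's quasi-likelihood test (2446 and 2791) and by DESeq2 (2498 and 2344). They moved further with the limits of the rule itself: 1076 and 964 with a filter of 10 CPM, which keeps fewer genes, 4259 and 5202 at 1.5-fold, and 740 and 722 at 4-fold. Leaving out a library gave 2703 to 2775 higher and 3270 to 3364 lower, and these fits hold fewer libraries in the rule on overlap. The replicate numbers are shared by name only: deviations of same-numbered libraries correlated at 0.01, 0.02 and 0.01, and not every library correlated best with its own number. With the replicate number as a block the counts were 2672 and 3208, of which 2665 and 3199 were among the genes called without it.

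None of the 204 named genes past 2-fold changed sign under any setting. Calls near the limit were lost by some, among them *gpam*, *amfr* and *mt-nd4l* with RLE size factors, the same and *nr5a2* with the 6 libraries, and *gck*, *cebpa*, *vars1* and *slc25a1* with library totals or the other TMM factors, *acadm* with the former. Leaving out 1 library lost at most 6 calls, all near 2-fold. Without double mutant library 1, *gck* (log2 fold change 0.99) was lost, and without library 3 *gpam* (−0.89) and *amfr* (−0.898). Without *sec31anju221* library 1, *gck* (0.99), *gpam* (−0.92), *slc25a1* (0.96) and *vars1* (0.99) were lost, without library 2 *gck* (0.998), and without library 3 *amfr* (−0.95). Other losses included *mid1ip1a*, *lbr* and *spi1*, which entered the counts of their lists but are not named above. For 10 of 35 lists the median took both signs over the settings. All of these were within 0.09 of 0 in the values given above. With 1 sample per genotype, no setting gives the spread between larvae or dissections.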
